A study of Mus musculus with 15 samples.

Results

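Smooth muscle and pericyte genes were followed in fetal mouse gonads through 10 genes: *Acta2*, *Actg2*, *Myh11*, *Mylk*, *Tagln*, *Cnn1*, *Des*, *Myocd*, *Cspg4* and *Rgs5*. Each gene was represented by the array feature (transcript cluster) that carried its symbol and no other. Each of the 10 had exactly 1 such cluster, so they were 10 of the 65956 clusters tested and 10 of the 30638 clusters with a single symbol. Expression was measured on Affymetrix Clariom D mouse arrays, 1 array per sample, as log2 signals normalised by the study.

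The study set gonads that lack both anti-Müllerian hormone (*Amh*) and the activin/inhibin beta-B subunit (*Inhbb*) against normal testes and ovaries. Group dKO XY held 5 XY gonads of genotype *Amh*-/-; *Inhbb*-/- on a C57BL/6 background. Group control XX held 5 wild-type ovaries and group control XY 5 wild-type testes, which the labels call littermates. The labels place all 15 samples at E15.5. The deletions were carried in every cell of the embryo, and gonads were separated from the mesonephros, the neighbouring embryonic kidney. The study describes the samples as biological replicates and its legends show each as a single gonad.

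Peritubular myoid cells are contractile cells that flatten around the cords of the testis, and the fetal ovary has no such layer. Their contractile genes are shared with the smooth muscle of blood vessels, and pericytes are the mural cells of the smallest vessels. In smooth muscle, the DNA-binding factor SRF binds CArG boxes and, with its coactivator myocardin, drives genes of the contractile apparatus. In the mouse testis, desert hedgehog (*Dhh*) from Sertoli cells is needed for normal peritubular myoid cells. None of the 10 genes marks a single cell type of the gonad, and in whole gonads fewer cells of a type and less RNA per cell cannot be told apart.

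The CArG box was searched for in the members' promoters, because it is the element through which SRF and myocardin act on smooth muscle genes. The motif was taken as CC, 6 letters of A or T, then GG, which reads the same on both strands. RefSeq promoters of build GRCm38.p6, running from 250 bases before to 50 bases after the start, were matched by symbol for 6 members: *Acta2*, *Cnn1*, *Cspg4*, *Des*, *Mylk* and *Rgs5*. The exact motif stood in 0 of these 6 windows and in 1.63% of all 32851 promoters. With 1 other letter allowed among the middle 6, it stood in 1 of the 6, the promoter of *Acta2*, and in 9.98% of all promoters. The 250 bases before the start are shown for *Acta2* (chr19:34255374-34255623, minus strand) and *Cnn1* (chr9:22099003-22099252, plus strand). Both are thin filament genes, of which the first holds the matches and the second none. Capitals mark the matches, which begin 84 and 34 bases before the start of *Acta2*. A match is a description of the letters in this window and not a shown binding site. Sequence farther from the start and the members without a matched promoter were not searched. An absence here therefore does not show that a gene lacks the motif.
Acta2: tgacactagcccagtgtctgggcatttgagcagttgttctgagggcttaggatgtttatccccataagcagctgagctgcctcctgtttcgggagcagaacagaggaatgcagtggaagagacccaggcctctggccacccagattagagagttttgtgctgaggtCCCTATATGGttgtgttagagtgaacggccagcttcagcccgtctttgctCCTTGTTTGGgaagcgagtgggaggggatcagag
Cnn1: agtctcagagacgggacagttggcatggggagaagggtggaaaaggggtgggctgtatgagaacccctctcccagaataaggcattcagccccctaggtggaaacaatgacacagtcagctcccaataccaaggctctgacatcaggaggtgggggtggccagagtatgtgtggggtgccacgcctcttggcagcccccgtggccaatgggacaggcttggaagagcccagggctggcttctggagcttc

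The median over all clusters lay between 5.17 and 5.33 on the 15 arrays, and the mean correlation of an array with the others of its group between 0.991 and 0.995. The gap between positive and negative control probe sets was 4.31 on control XY replicate 5, which also had the lowest correlation, and 4.65 to 5.21 on the other 14 arrays. *Amh* stood at 4.4 to 4.72 in dKO XY and 4.11 to 4.46 in control XX gonads, against 10.94 to 12.09 in control XY gonads. *Inhbb* stood at 9.17 to 9.38 in dKO XY and 9.06 to 9.28 in control XX gonads, against 10.33 to 10.63 in control XY gonads, so signal remained in gonads labelled as lacking the gene, and which of its probes lie outside the deletion is not known here. For 891 clusters the deposited values pass 16 on at least 1 array, above what a 16-bit scanner gives, so a log2 difference of 1 is called 2-fold by convention. Probes respond unequally, so levels are compared between groups and never between genes. Calls needed a difference of at least 1 and a limma p (two-sided, n = 5 per group) that stayed under 0.05 after Benjamini-Hochberg adjustment over all 65956 clusters.

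In the dKO XY gonads the means of most members lay between ovary and testis. Those of *Tagln*, *Cnn1*, *Cspg4* and *Mylk* were nearer to the ovary, and those of *Acta2*, *Myocd*, *Rgs5* and *Actg2* nearer to the testis, with array ranges that partly overlapped. The mean of *Myh11*, the smooth muscle myosin, was close to that of the testis, and *Des* did not separate the controls. *Acta2*, *Cnn1*, *Cspg4*, *Rgs5* and *Mylk* lay below the testis with differences of -0.86 to -0.56, while that of *Tagln* was -1.51. *Cnn1* and *Cspg4* were dim, so these sizes do not rank the genes. Against control XY gonads, 1 member was called lower in dKO XY gonads (*Tagln*), where 1.62% of all clusters were called lower. No member was called higher by limma, where 0.567% of all clusters were, and none was higher at an unadjusted p under 0.05. Without the 2-fold minimum 6 members passed the adjusted p as lower (*Acta2*, *Tagln*, *Cnn1*, *Mylk*, *Cspg4* and *Rgs5*), where 6.02% of all clusters did. The same 6 had no overlap between the 5 dKO XY and the 5 control XY arrays, against 4.59% of all clusters, and no member lay wholly above the testes, against 4.26%. The median difference of the 10 members was -0.6, beside 0.01 over all clusters.

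**Figure D1:**
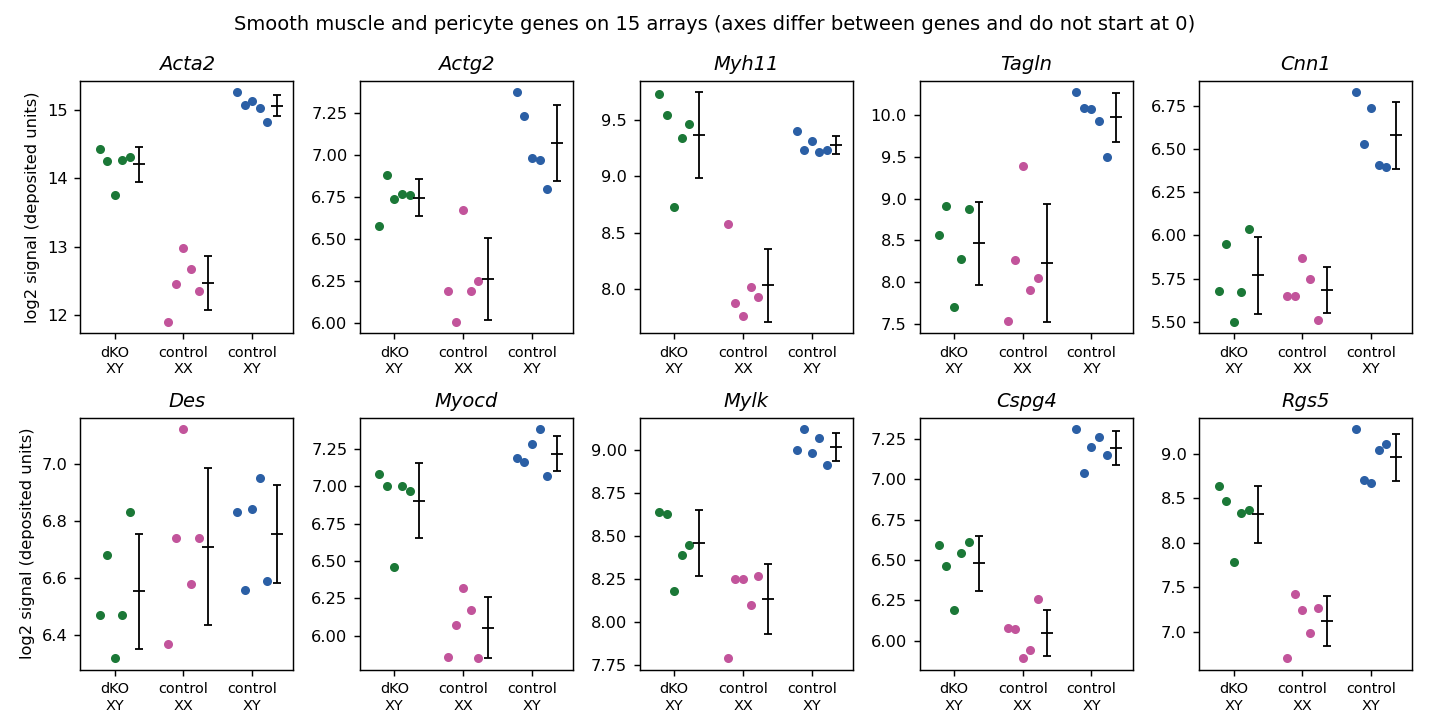
Log2 signal of the 10 smooth muscle and pericyte genes on each of 15 arrays, with 1 panel per gene; points are arrays, bars are the group mean and SD (n = 5 per group), and the axes differ between genes, with dKO XY at the left, then control XX and control XY. *Acta2* separates all 3 groups, *Myh11* lies as high in dKO XY as in control XY gonads, and *Cnn1* lies as low in dKO XY as in control XX gonads.

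Among the filament proteins, *Acta2* encodes smooth muscle alpha-actin, the thin filament actin of myoid and vascular smooth muscle cells. *Acta2* stood at 14.43, 14.25, 13.76, 14.26 and 14.31 on the dKO XY arrays, at 11.91, 12.46, 12.98, 12.67 and 12.36 on the control XX arrays, and at 15.25, 15.07, 15.12, 15.03 and 14.82 on the control XY arrays. No group overlapped another, and the dKO XY gonads were in the middle. *Acta2* rose by 1.73 ± 0.17 (SE) over control XX gonads (adjusted p = 1.9e-06) and was 0.86 ± 0.17 below control XY gonads (adjusted p = 0.0031), which misses the 2-fold minimum. It fell by 2.58 ± 0.17 in control XX against control XY gonads (adjusted p = 6.3e-09), the widest of the members' differences between the controls.

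*Myh11* encodes the smooth muscle myosin heavy chain, the motor of the thick filament. Its signals were 9.73, 9.54, 8.73, 9.34 and 9.46 on the dKO XY arrays, 8.58, 7.88, 7.76, 8.02 and 7.93 on the control XX arrays, and 9.40, 9.23, 9.31, 9.21 and 9.23 on the control XY arrays. Of the 5 dKO XY arrays 3 were above every control XY array, 1 was among them and 1 below them all, and no dKO XY array reached down to the ovaries. The difference of dKO XY from control XY gonads was 0.08 ± 0.17, with a 95% interval of -0.27 to 0.43 (adjusted p = 0.85). Over control XX gonads *Myh11* rose by 1.32 ± 0.17 in dKO XY gonads (adjusted p = 3.2e-05), and between the controls it fell by 1.24 ± 0.17 in control XX gonads (adjusted p = 2.6e-05).

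*Actg2* encodes the gamma-actin of visceral smooth muscle. Its signals were 6.58, 6.88, 6.74, 6.77 and 6.76 on the dKO XY arrays, 6.19, 6.01, 6.67, 6.19 and 6.25 on the control XX arrays, and 7.37, 7.23, 6.98, 6.97 and 6.80 on the control XY arrays. The dKO XY arrays overlapped both controls at the edges, while the controls did not overlap each other. dKO XY gonads were 0.48 ± 0.12 above control XX gonads (adjusted p = 0.012), and their difference from control XY gonads was -0.32 ± 0.12 (adjusted p = 0.12). None of the 3 differences of *Actg2* reached 1.

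*Mylk* encodes myosin light chain kinase, which starts contraction by phosphorylating the myosin light chain. Its signals were 8.64, 8.63, 8.18, 8.39 and 8.45 on the dKO XY arrays, 7.79, 8.25, 8.25, 8.10 and 8.27 on the control XX arrays, and 9, 9.12, 8.98, 9.07 and 8.91 on the control XY arrays. All dKO XY arrays were below all control XY arrays, and the lowest of them lay within the ovaries. *Mylk* was 0.56 ± 0.1 lower in dKO XY than in control XY gonads (adjusted p = 0.0025). The difference from control XX gonads, 0.33 ± 0.1, was close to the threshold (adjusted p = 0.046) and was on the other side of it under 12 of 20 alternatives.

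*Tagln* and *Cnn1* belong to the calponin family and bind actin filaments: *Tagln* encodes transgelin (SM22-alpha), and *Cnn1* calponin 1, which restrains the myosin motor on actin. *Tagln* stood at 8.56, 8.91, 7.70, 8.27 and 8.87 on the dKO XY arrays, at 7.53, 8.26, 9.39, 7.91 and 8.05 on the control XX arrays, and at 10.27, 10.09, 10.07, 9.93 and 9.50 on the control XY arrays. The dKO XY arrays lay below every testis and inside the range of the ovaries, whose upper end was 1 ovary at 9.39, the next being 8.26. *Tagln* fell by 1.51 ± 0.29 in dKO XY against control XY gonads, with a 95% interval of -2.13 to -0.89 (adjusted p = 0.0032), lower on 5 of 5 arrays. The difference of dKO XY from control XX gonads was 0.23 ± 0.29 (95% interval -0.39 to 0.85, adjusted p = 0.7), and *Tagln* fell by 1.74 ± 0.29 in control XX against control XY gonads (adjusted p = 0.00025). *Tagln* had the widest spread of the members among ovaries, SD 0.7, with 1 ovary at 9.39, next to the lowest testis.

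*Cnn1* was dim, with 41% of the negative control probe sets below its mean in dKO XY gonads, 39.1% in control XX gonads and 56.1% in control XY gonads, so its differences are compressed by background. Its signals were 5.68, 5.95, 5.5, 5.67 and 6.04 on the dKO XY arrays, 5.65, 5.65, 5.87, 5.75 and 5.51 on the control XX arrays, and 6.83, 6.53, 6.74, 6.41 and 6.40 on the control XY arrays. Every dKO XY array and every ovary was below every testis, and the dKO XY arrays and ovaries were mixed. *Cnn1* was 0.81 ± 0.11 lower in dKO XY than in control XY gonads (adjusted p = 0.00025) and differed from control XX gonads by 0.09 ± 0.11 (95% interval -0.16 to 0.33, adjusted p = 0.72).

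*Des* encodes desmin, the intermediate filament protein of muscle cells. Its signals were 6.47, 6.68, 6.32, 6.47 and 6.83 on the dKO XY arrays, 6.37, 6.74, 7.12, 6.58 and 6.74 on the control XX arrays, and 6.83, 6.56, 6.84, 6.95 and 6.59 on the control XY arrays. All 3 groups overlapped. The differences were -0.2 ± 0.13 for dKO XY against control XY gonads (adjusted p = 0.42), -0.16 ± 0.13 for dKO XY against control XX gonads (adjusted p = 0.52) and -0.04 ± 0.13 for control XX against control XY gonads (adjusted p = 0.88), the last with a 95% interval of -0.32 to 0.24. *Des* was the 1 member of the 10 for which ovary and testis overlapped. It was dim, with 57.5% of the negative control probe sets below its mean in dKO XY, 61% in control XX and 59.7% in control XY gonads. A difference could therefore be compressed by background.

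*Myocd* encodes myocardin, the coactivator of SRF. Its signals were 7.08, 7, 6.46, 7 and 6.97 on the dKO XY arrays, 5.86, 6.07, 6.32, 6.17 and 5.85 on the control XX arrays, and 7.19, 7.16, 7.28, 7.38 and 7.07 on the control XY arrays. All dKO XY arrays were above all ovaries, and 1 of them reached just past the lowest testis. In dKO XY gonads *Myocd* was 0.85 ± 0.12 above control XX gonads (adjusted p = 9.3e-05), and its difference from control XY gonads was -0.31 ± 0.12 (95% interval -0.56 to -0.06, adjusted p = 0.12). Between the controls *Myocd* fell by 1.16 ± 0.12 in control XX gonads (adjusted p = 1.5e-06).

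The pericyte genes were *Cspg4*, which encodes the NG2 proteoglycan of the pericyte surface, and *Rgs5*, which encodes a regulator that shortens signalling by G proteins in mural cells. *Cspg4* stood at 6.59, 6.46, 6.19, 6.54 and 6.61 on the dKO XY arrays, at 6.08, 6.07, 5.89, 5.94 and 6.26 on the control XX arrays, and at 7.31, 7.04, 7.20, 7.26 and 7.15 on the control XY arrays. Every dKO XY array was below every testis, and 1 of them lay within the ovaries. *Cspg4* was 0.71 ± 0.09 lower in dKO XY than in control XY gonads (adjusted p = 0.00012) and 0.43 ± 0.09 higher than in control XX gonads (adjusted p = 0.004), and it fell by 1.14 ± 0.09 in control XX against control XY gonads (adjusted p = 1e-07).

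*Rgs5* stood at 8.64, 8.47, 7.78, 8.34 and 8.37 on the dKO XY arrays, at 6.70, 7.42, 7.24, 6.99 and 7.27 on the control XX arrays, and at 9.28, 8.71, 8.67, 9.04 and 9.11 on the control XY arrays. No group overlapped another, and the highest dKO XY array stopped just short of the lowest testis. *Rgs5* rose by 1.2 ± 0.17 in dKO XY over control XX gonads (adjusted p = 8.9e-05) and was 0.64 ± 0.17 below control XY gonads (adjusted p = 0.02). Without dKO XY replicate 3 the last difference was -0.51 (adjusted p = 0.053), without control XY replicate 1 it was -0.56 (adjusted p = 0.056), and without control XY replicate 5 it was -0.61 (adjusted p = 0.05 as rounded, just over the threshold). Between the controls *Rgs5* fell by 1.84 ± 0.17 in control XX gonads (adjusted p = 3.8e-07).

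Over the whole set, 3 members rose in dKO XY gonads against ovaries (*Acta2*, *Myh11* and *Rgs5*), where 1.22% of all clusters were called higher. None was called lower by limma, where 1.28% of all clusters were, and 0 were lower at an unadjusted p under 0.05. Without the 2-fold minimum 7 members passed as higher, where 7.55% of all clusters did: these 3 with *Actg2*, *Myocd*, *Mylk* and *Cspg4*. None passed as lower, where 7.51% did. There was no overlap between dKO XY gonads and ovaries for 4 members (*Acta2*, *Myh11*, *Myocd* and *Rgs5*), against 6.4% of all clusters in that direction. The median difference of the members was 0.46, beside 0.02 over all clusters. Both comparisons share the dKO XY arrays, so their values are not independent.

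Between the controls, 6 of the 10 members fell in control XX against control XY gonads (*Acta2*, *Myh11*, *Tagln*, *Myocd*, *Cspg4* and *Rgs5*), where 3.22% of all clusters were called lower, and none rose, where 2.54% did. The adjusted p alone was passed by 9 members, where 13.4% of all clusters passed as lower. The ovaries lay wholly below the testes for the same 9, against 9.79% of all clusters, and no member lay wholly above, against 8.38%. The exception was *Des*. The median difference was -1.15, beside -0.01 over all clusters.

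**Figure D2:**
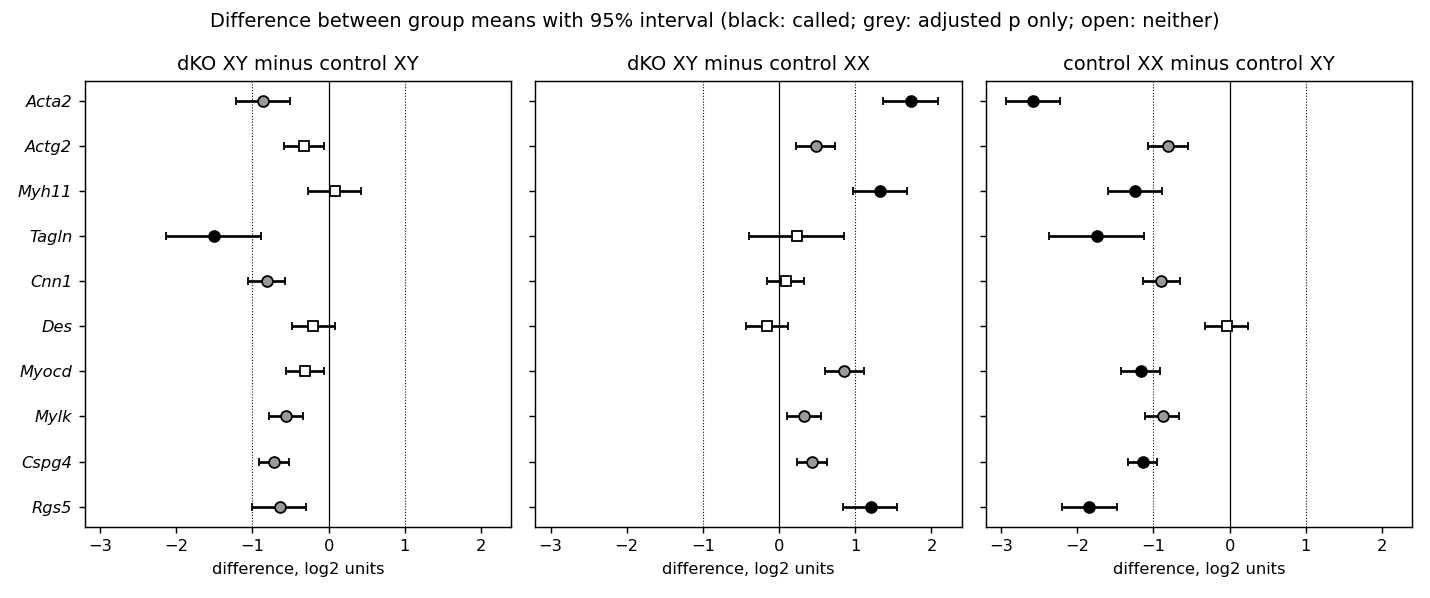
Difference in log2 signal for each of the 10 genes in dKO XY minus control XY, dKO XY minus control XX and control XX minus control XY, with 95% intervals from the fit over all clusters (n = 5 arrays per group); black points were called, grey points passed the adjusted p alone, open squares did neither, and dotted lines mark differences of 1 in either direction. In dKO XY minus control XY *Tagln* lies past the lower line at -1.51 and *Myh11* at 0.08.

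The place of the dKO XY gonads between the controls was given as a percentage, with the control XX mean at 0 and the control XY mean at 100. For *Cnn1*, *Cspg4*, *Myocd* and *Actg2* the control XX mean lay near or below the negative control median of 6.24 (39.1%, 47%, 47.1% and 51.7% of the negative control probe sets were below it), so their lower end is a background level and their percentages do not rank them against the other genes. *Myh11* stood at 106% and its 5 arrays ran from 55.9% to 136%. Nearer to the testis by their means were *Myocd* at 73.3% (35.2% to 88.5%), *Acta2* at 66.9% (49.7% to 75.5%), *Rgs5* at 65% (36% to 82.3%) and *Actg2* at 60.1% (39.5% to 77.1%). These 4 overlapped one another over the arrays. Nearer to the ovary were *Cspg4* at 37.6% (12.4% to 49.6%) and *Mylk* at 37% (5.78% to 57.9%). The arrays of *Mylk* overlapped those of all 4 before it and of *Myh11*. The remaining genes were *Tagln* at 13.3% (-30.1% to 38.9%) and *Cnn1* at 9.52% (-20.4% to 40.1%). The control XX mean of *Tagln* is raised by 1 ovary at 9.39. Without that ovary *Tagln* lay 0.52 above control XX gonads instead of 0.23, which would place it farther from the ovary. For *Des* the position is not defined, since the controls did not differ.

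**Figure D3:**
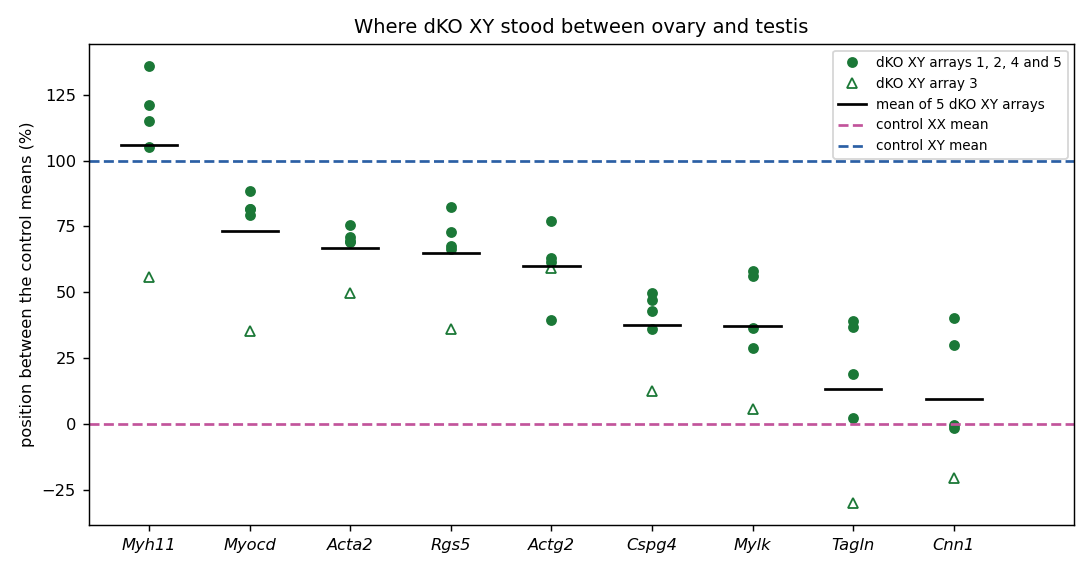
Position of dKO XY gonads for 9 genes, in percent, with the control XX mean at 0 and the control XY mean at 100 (dashed lines); filled points are dKO XY arrays, open triangles are replicate 3 and black bars are the mean of the 5 arrays. *Myh11* lies at 106%, *Cnn1* at 9.52%, and *Des* is not drawn because its controls did not differ.

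The ratio of 2 members within an array does not change with the overall scale of that array, and it was used to describe how unequal the members' shifts were. The log2 ratio of *Myh11* to *Tagln* averaged 0.9 ± 0.27 in dKO XY and -0.69 ± 0.25 in control XY gonads (SD, n = 5 each). It ran from 0.59 to 1.17 on the dKO XY arrays, against -0.87 to -0.27 on the control XY arrays, so the groups lay far apart. The ovaries were widely spread for this ratio, from -1.63 to 1.04. The ratio of *Acta2* to *Myh11* was 4.7 to 5.03 in dKO XY against 5.59 to 5.85 in control XY gonads. That of *Myh11* to *Rgs5* was 0.94 to 1.09 in dKO XY against 0.12 to 0.64 in control XY gonads. The ratio of *Acta2* to *Cnn1*, by contrast, was 8.26 to 8.74 in dKO XY against 8.38 to 8.61 in control XY gonads and overlapped, and so did those among *Mylk*, *Cspg4* and *Rgs5*. That of *Acta2* to *Mylk* was 5.58 to 5.88 in dKO XY against 5.91 to 6.25 in control XY gonads and did not overlap. *Cnn1*, *Cspg4* and *Des* were dim, so their shifts can be compressed by background. An overlap of ratios that hold them therefore does not show equal shifts. Probes also respond unequally, so a shifted ratio describes signals and not amounts of RNA. Of the 9 ratios that hold *Myh11*, 7 shifted towards *Myh11* in dKO XY gonads with no overlap with control XY gonads, and of the 9 that hold *Tagln*, 7 shifted away from *Tagln* with no overlap. Over all pairs 20 of 45 ratios did not overlap between dKO XY and control XY gonads. The count was 22 of 45 between dKO XY and control XX gonads and 20 of 45 between the controls. The share over pairs of other genes was not measured, so these counts set neither the members nor the dKO XY gonads apart. The ratios named here were chosen after the values were seen and carry no test.

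One dKO XY array stood low for most of the set. Replicate 3 was the lowest dKO XY array for 9 of the 10 members, *Actg2* being the exception, and lay 0.39 below its group's mean on average over the members. On that array the mean of the interstitial and stromal markers lay 0.38 below the mean of its group, that of the fetal Leydig markers 0.3 below and that of the SRF partners 0.26 below. The surface epithelium, endothelial, Sertoli and germ cell markers were also low, by 0.15 to 0.24. Erythroid markers lay 0.59 above, granulosa markers 0.17 above, mesonephros and duct markers 0.16 above and cardiac muscle markers 0.11 above. Granulosa markers lay 0.18 above on dKO XY replicate 1 too, so they do not set replicate 3 apart. The part of these cells in the low values was not tested. Without replicate 3 the difference of dKO XY from control XY gonads was -1.32 for *Tagln* (adjusted p = 0.01), -0.74 for *Acta2* (adjusted p = 0.0098) and 0.24 for *Myh11* (adjusted p = 0.38). In control XX gonads replicate 3 was the highest ovary for 6 members, and its interstitial and stromal markers lay 0.51 above the mean of its group. Without this ovary *Tagln* differed by 0.52 between dKO XY and control XX gonads (adjusted p = 0.17). In control XY gonads replicate 1 was the highest for 7 members and replicate 5, the array with the smallest gap between control probe sets, the lowest for 6. Without it *Tagln* was still called lower in dKO XY gonads.

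**Figure D4:**
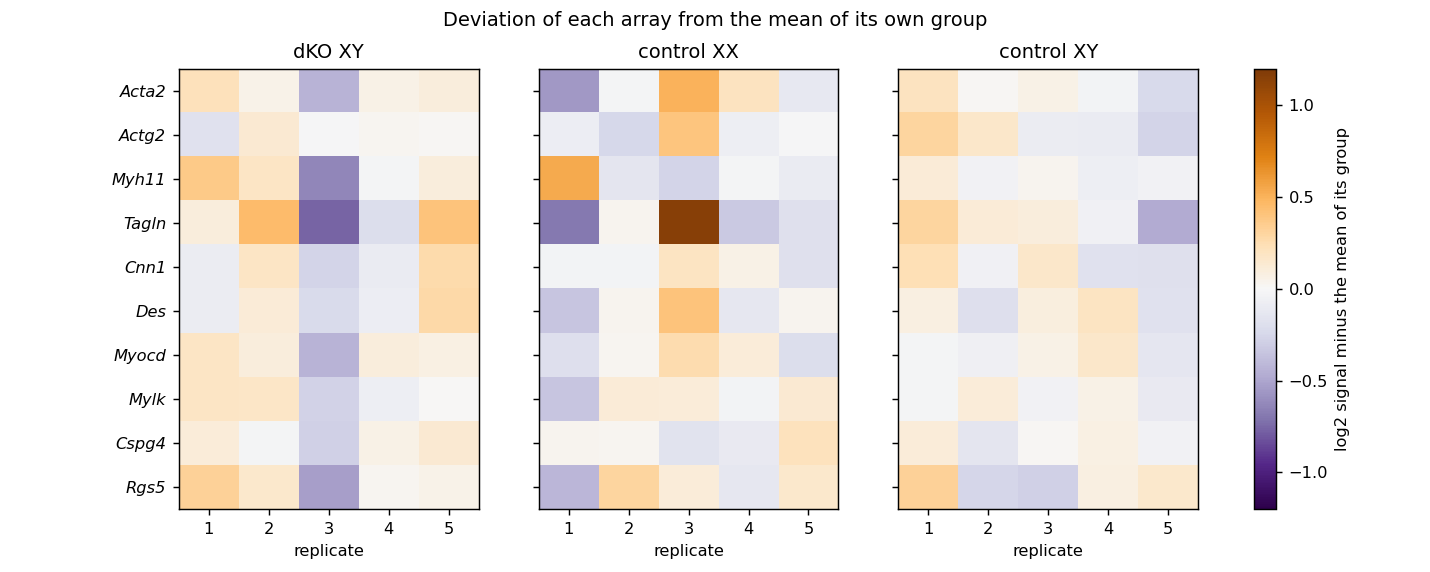
Log2 signal of each gene (rows) on each array (columns, replicates 1 to 5) minus the mean of its own group, as colour from purple (below the group mean) to brown (above it), with dKO XY at the left, then control XX and control XY. The column of dKO XY replicate 3 is below its group mean for most genes, by 0.39 on average, and *Tagln* on control XX replicate 3 is the farthest above.

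SRF and its partners made up the first list of related genes, 12 of 12 measured. The list also holds a gene that opposes myocardin, so its median does not stand for coactivators alone. In dKO XY against control XY gonads 1 was called lower and none higher, with a median of -0.24. That gene was *Tcf21*, which marks gonadal stroma and opposes myocardin in human coronary smooth muscle. It fell by 1.25 ± 0.22 (adjusted p = 0.0015). Against control XX gonads none was called and the median was 0.41. In control XX against control XY gonads *Tcf21* (-2.04 ± 0.22), *Fhl2* (-1.18 ± 0.11) and *Csrp2* (-1.19 ± 0.13), a pair of LIM proteins that work with SRF, fell, and none rose. *Srf* itself averaged 8.71 ± 0.23 in dKO XY, 8.21 ± 0.11 in control XX and 9.15 ± 0.14 in control XY gonads (SD, n = 5 each). It was thus in the middle in dKO XY gonads, 0.45 ± 0.11 below control XY (adjusted p = 0.011) and 0.5 ± 0.11 above control XX gonads (adjusted p = 0.0035), short of 2-fold both times. *Mrtfb*, a relative of myocardin, averaged 10.66 ± 0.2 in dKO XY, 10.57 ± 0.13 in control XX and 10.8 ± 0.13 in control XY gonads.

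Paralogs of the members, such as other actins, calponins and intermediate filament genes, were measured for 18 of 20. None was called in dKO XY against control XY gonads, and the median was -0.03. At the adjusted p alone 1 passed as higher and 3 as lower. In control XX against control XY gonads 4 fell and 1 rose. The desmin partner *Synm* fell by 2.05 ± 0.09 and the progenitor filament gene *Nes* by 1.54 ± 0.12 there, while no difference was found for the dim *Des*. *Cnn2*, the calponin of non-muscle cells, fell by 1.49 ± 0.15, and *Rgs2* rose by 1.63 ± 0.14, in the opposite direction from *Rgs5*. In dKO XY against control XX gonads *Synm* rose by 1.35 ± 0.09 (adjusted p = 4.9e-08) and *Tagln2*, named after its values were seen, by 1.74 ± 0.26 (adjusted p = 0.00015).

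Other contractile and smooth muscle genes were measured for 29 of 33. In dKO XY against control XY gonads 1 rose and 1 fell, with a median of -0.14. *Pdlim3*, which encodes a muscle LIM protein of the actin cytoskeleton, fell by 1.87 ± 0.35 (adjusted p = 0.0025). *Cav1*, the caveolar coat gene, rose by 1.17 ± 0.11 (adjusted p = 7.7e-06) and was named after its values were seen. Against control XX gonads 4 rose and 3 fell. *Pdlim3* rose by 4.5 ± 0.35 and *Casq2*, the calcium-binding protein calsequestrin, by 4.11 ± 0.14, so both were far above the ovary in dKO XY gonads. *Npnt*, an integrin ligand of the extracellular matrix, fell by 1.43 ± 0.1 there. Between the controls 4 rose and 8 fell in control XX gonads, *Pdlim3* by 6.37 ± 0.35 and the contractile gene *Smtn* (smoothelin) by 1.21 ± 0.1 among those that fell, with a median of -0.44.

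Other pericyte genes were measured for 15 of 15. In dKO XY against control XY gonads 1 rose and 1 fell, with a median of -0.08. *Anpep*, an aminopeptidase of pericytes that other cells also carry, rose by 2.27 ± 0.14 (adjusted p = 8.4e-08), in the direction opposite to *Cspg4* and *Rgs5*. The gene that fell, *Foxs1*, is a transcription factor (-1.04 ± 0.22, adjusted p = 0.0048) and was named after its values were seen. The platelet-derived growth factor receptor *Pdgfrb*, on which pericytes depend, averaged 11.78 ± 0.19 in dKO XY, 11.08 ± 0.37 in control XX and 12.58 ± 0.22 in control XY gonads. It was 0.8 ± 0.16 below control XY gonads (adjusted p = 0.0036), short of 2-fold. In control XX against control XY gonads 6 fell and 1 rose, among them the Notch receptor of mural cells *Notch3* (-1.32 ± 0.1), the Notch target *Heyl* (-2.03 ± 0.13) and the adhesion molecule *Mcam* (-1.31 ± 0.11). *Heyl* was the gene that rose in dKO XY against control XX gonads, by 1.37 ± 0.13 (adjusted p = 1.7e-06), and none of the 15 fell there.

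Signals that act on mural and peritubular cells were measured for 20 of 22. *Dhh* averaged 8.3 ± 0.27 in dKO XY, 5.01 ± 0.1 in control XX and 9.15 ± 0.09 in control XY gonads. Its level in dKO XY gonads was 0.85 ± 0.11 below control XY (adjusted p = 9e-05), short of 2-fold, and it rose by 3.29 ± 0.11 over control XX gonads (adjusted p = 5.9e-12). The hedgehog receptor and target *Ptch1* rose by 2.82 ± 0.15 and the target *Gli1* by 2.25 ± 0.13 over control XX gonads, while against control XY gonads *Ptch1* differed by -0.49 ± 0.15 (adjusted p = 0.046) and *Gli1* by -0.75 ± 0.13 (adjusted p = 0.0017). The Notch ligand *Jag1* rose by 2.36 ± 0.15 over control XX gonads and was 0.77 ± 0.15 below control XY gonads (adjusted p = 0.0029). Of the 20, none was called higher and 1 was called lower in dKO XY against control XY gonads. That gene was *Tgfb2*, a transforming growth factor (-1.02 ± 0.18, adjusted p = 0.0014), named after its values were seen. Against control XX gonads 5 of the 20 were called higher and none lower, while the adjusted p alone was passed by 9 as higher and 4 as lower. In control XX against control XY gonads 5 fell and 2 rose, so the signals did not all move 1 way.

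**Figure D5:**
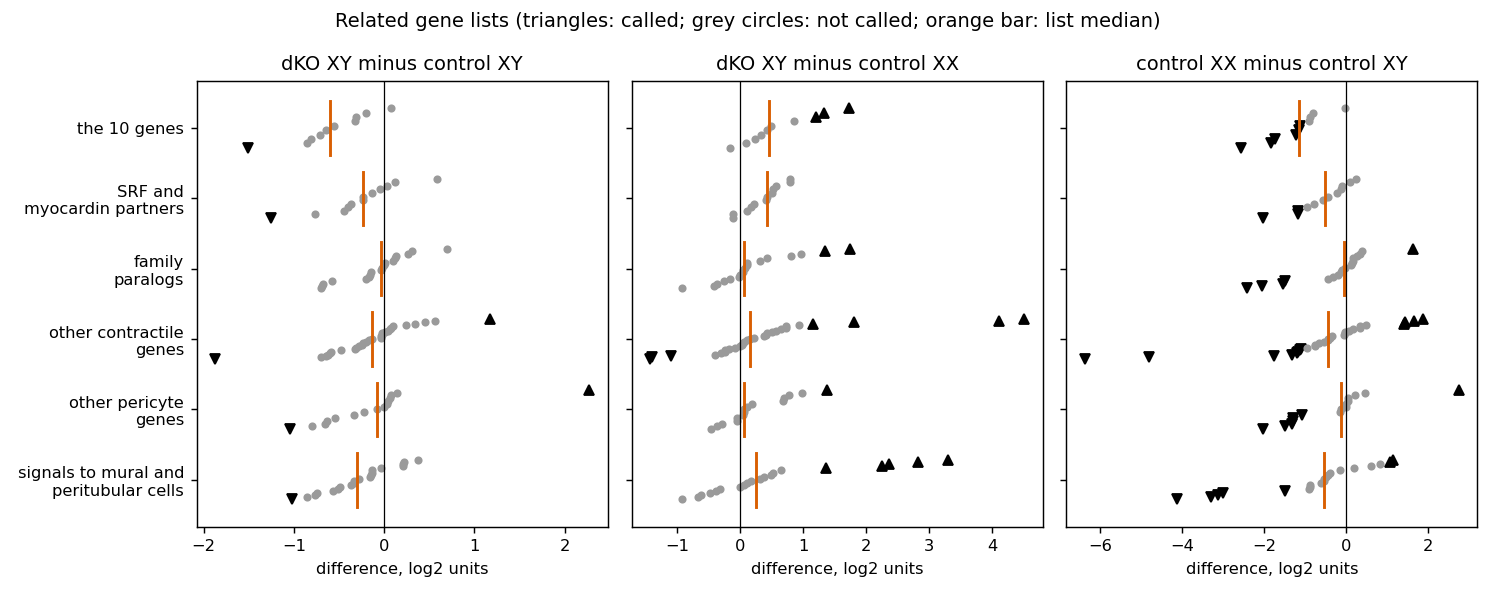
Differences in log2 signal for the 10 genes and the 5 lists of related genes in dKO XY minus control XY, dKO XY minus control XX and control XX minus control XY; black triangles are called genes, grey circles are genes not called, orange bars are list medians, and the 3 panels have different scales. The medians of dKO XY minus control XY are -0.6 for the 10 genes, -0.24 for SRF and its partners and -0.3 for the signals. They are -0.03 for the family paralogs, -0.14 for the other contractile genes and -0.08 for the other pericyte genes.

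Markers of other cells moved between the same groups. Of the interstitial and stromal markers, 10 of 12 measured, 5 were called lower in dKO XY than in control XY gonads and none higher. Among these 5 was *Tcf21*, which also stands in the list of SRF and its partners. The mean of the interstitial and stromal list ran from 10.51 to 11.16 in dKO XY and from 10.46 to 11.28 in control XX gonads, against 11.73 to 12 in control XY gonads. Its median difference was -1.02 both in dKO XY and in control XX against control XY gonads. Against control XX gonads 1 of the 10 was called higher in dKO XY gonads, *Nr2f2* (1.03 ± 0.15, adjusted p = 0.00014), and 3 passed the adjusted p alone as higher. Of 7 granulosa markers 6 rose in dKO XY against control XY gonads, and of 8 surface epithelium markers 5. Of 6 germ cell markers 3 rose there and none fell. Against control XX gonads 5 of 8 Sertoli markers and 5 of 5 measured fetal Leydig markers rose, and none fell. The part of these cells in the members' differences was not tested.

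Endothelial markers, 9 of 10 measured, had none called in dKO XY against control XY gonads, and their mean ran from 8.64 to 8.94 in dKO XY, from 8.34 to 8.71 in control XX and from 8.61 to 8.79 in control XY gonads. Against control XX gonads 1 was called higher, *Cdh5* (1.02 ± 0.13, adjusted p = 2.4e-05), and none lower. The adjusted p alone was passed there by 3 as higher and by 1 as lower. The part of vessels in the differences of *Rgs5* and *Cspg4* was not tested. Skeletal muscle markers gave means of 5.74 to 5.99 in dKO XY, 5.76 to 6.16 in control XX and 5.96 to 6.28 in control XY gonads, with 2 of 11 called lower in dKO XY against control XY gonads. These were *Neb* (-1.53 ± 0.3, adjusted p = 0.0033) and *Ttn* (-1.15 ± 0.25, adjusted p = 0.0063), named after their values were seen. *Neb* averaged 7.2 ± 0.52 in dKO XY, 6.75 ± 0.21 in control XX and 8.73 ± 0.73 in control XY gonads. Without the 2-fold minimum 4 of the 11 passed the adjusted p as lower and none as higher. The defining skeletal factors *Myod1* (4.45 ± 0.17 in dKO XY, 4.28 ± 0.1 in control XX and 4.28 ± 0.07 in control XY gonads) and *Myog* (5.09 ± 0.11 in dKO XY, 5.01 ± 0.21 in control XX and 4.85 ± 0.13 in control XY gonads) were below the negative control median of 6.24 in all 3 groups. Mesonephros and duct markers, 6 of 8 measured, had means of 5.68 to 5.95 in dKO XY, 6.2 to 6.75 in control XX and 5.29 to 5.63 in control XY gonads, with no overlap between groups. *Emx2*, which the gonad also expresses, rose by 1.12 ± 0.16 in dKO XY against control XY gonads and fell by 1.42 ± 0.16 against control XX gonads, and *Calb1* fell by 3.01 ± 0.39 against control XX gonads. Short of 2-fold against control XX gonads, *Pax8* was 0.85 ± 0.14 lower (adjusted p = 0.00052) and *Lhx1* 0.89 ± 0.17 higher (adjusted p = 0.0013). *Pax8* averaged 7.05 ± 0.34 in control XX gonads, above the negative control median. *Pax2*, another of these markers, was at 4.01 ± 0.04 in dKO XY, 3.96 ± 0.03 in control XX and 4.04 ± 0.05 in control XY gonads, below the negative control median. The part of these cells in the members' differences was not tested.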

How the data were processed

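RNA of 15 gonad samples was amplified and hybridised to Clariom D arrays by the authors, who deposited log2 intensities normalised by RMA; the software settings that take values above 16 and the genome build of the array are not given in the sources used here. The study's statement on data availability names an earlier stage beside these arrays, and the stage of the labels, E15.5, was used. Per-array values were taken as deposited, 6732 control entries of 72688 were left out, and symbols came from the platform annotation (30638 clusters with 1 symbol, 2176 with several, 33142 with none). limma 3.58.1 in R 4.3.3 fitted 1 mean per group over all 15 arrays; the model was tested on simulated data. The authors' one-way ANOVA used the same thresholds, a false discovery rate of 0.05 and 2-fold. Where a gene had several clusters, that with the highest mean would have stood for it. All 10 members were named, and from each list of related genes up to 4 called genes with the largest moderated statistic, plus up to 2 that say what the list is. The members and lists were chosen with earlier results of these data known. The number of arrays limits the precision.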

Additional observations from a re-analysis of the deposited data

Results flagged for a closer look

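A sample far from the others of its group was looked for in each of the 30 groups of 5 values that the 10 members give, by setting the gap of the extreme array to its neighbour against the whole range. Chance alone marks about 1 in 20 such groups. Both groups that passed were marked by the same array, dKO XY replicate 3. *Acta2* stood at 13.76 on that array, against 14.25 to 14.43 on the other 4 dKO XY arrays, a gap of 0.744 of the range. *Myocd* stood at 6.46, against 6.97 to 7.08 on the others, a gap of 0.826 of the range. The marker values of that array are given with the members' deviations, and their part was not tested.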

How the results depend on the processing

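Over 20 alternatives per comparison (scaling, filter, moderation, array weights, threshold, replicate block and each array left out), the members' differences and calls gave 600 values. Of these 575 kept direction and call, 20 were called in addition, all through easier thresholds, and no call was lost. The 5 others changed sign in differences near 0 that were never called: *Myh11* in dKO XY against control XY gonads was -0.01 without dKO XY replicate 1 (range -0.01 to 0.24 with single arrays left out), and *Des* in control XX against control XY gonads was 0 with array medians centred, 0.03 after a second quantile normalization and 0.01 to 0.04 without control XY replicate 4 or control XX replicate 1 (range -0.15 to 0.04). The threshold, filter, moderation, replicate block and a fit of the 2 groups alone leave a difference as it is. Direction could therefore not change under these alternatives. A call needs a difference of at least 1, so crossings of the adjusted p alone are not in these counts. They occurred in 2 of the 30 member tests, *Mylk* against control XX and *Rgs5* against control XY gonads. In dKO XY against control XY gonads 6 members passed as lower at the adjusted p alone (6.02% of all clusters) and 5 at a 1.5-fold minimum (3.66%), against 1. In dKO XY against control XX gonads 7 passed as higher at the adjusted p alone, against 3. Leaving out single arrays left 1, 3 and 6 members called in the 3 comparisons. *Tagln* in dKO XY against control XY gonads ran from -1.63 to -1.32 (adjusted p 0.0016 to 0.015). Over all clusters, 364 rose and 674 fell without control XY replicate 5, against 374 and 1070.

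Replicate numbers recur in each group, but the labels do not tie them to a litter, and same-numbered arrays did not deviate together: the correlations ran from -0.191 to -0.0415 for dKO XY with control XY, -0.175 to 0.159 for dKO XY with control XX and -0.113 to 0.189 for control XX with control XY. With the replicate block 1 member was called lower, 3 higher and 6 lower, the same counts. *Tagln* then had an adjusted p of 0.011, and *Mylk* in dKO XY against control XX gonads no longer passed the adjusted p alone (0.077). No member had a second cluster, so that choice gave no other value. Dim genes such as *Cnn1*, near the negative controls, can show only compressed differences.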
